A study of Mus musculus with 11 samples.

Results

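Glutamine is made, broken down and carried into cells by a small set of enzymes and transporters, and 9 of their genes (Glul, Glud1, Asns, Got1, Slc1a5, Slc7a5, Slc7a11, Slc38a1 and Slc38a2) were followed in mouse epidermis with and without Langerhans cells (LCs). These 9 of the 52550 genes in the data were chosen by name and, for Glul, selected on its measured values, a lower level in LC-/- than WT keratinocytes and not in T cells. Differences between LC-/- and WT are therefore given for the 9 genes as a description without a test, and so are those of Glul between cell types, since the choice used its values in both. For the other members, differences between cell types are tested.

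RNA of sorted keratinocytes (KCs) and dendritic epidermal T cells (DETCs) was sequenced from the flank epidermis of female mice that were 8 weeks old. The mice were either WT or littermates carrying huLangerin-DTA (labelled DTA, written LC-/- here), a transgene in which the human langerin promoter drives diphtheria toxin subunit A, so that LCs are missing from birth. There were 3 WT KC, 3 LC-/- KC, 3 WT DETC and 2 LC-/- DETC libraries, written W1 to W3 and L1 to L3, with no DETC library for L1. KCs were sorted as live cells negative for MHC-II, CD45, langerin and c-kit, and DETCs by the same markers but positive for CD45. The study describes each point of its principal component plot as a separate animal. KC and DETC libraries written with the same name here carry the same number in their labels. The labels do not say whether that number marks a shared mouse. The main tests treat all libraries as independent, and fits with the number as a replicate block are given at the end.

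Glutamine synthetase (Glul) joins ammonia to glutamate, glutamate dehydrogenase (Glud1) turns glutamate into the citric acid cycle intermediate α-ketoglutarate, the cytosolic aspartate aminotransferase (Got1) exchanges amino groups between glutamate and aspartate, and asparagine synthetase (Asns) uses the amide nitrogen of glutamine to make asparagine. Slc1a5, Slc38a1 and Slc38a2 encode sodium-coupled carriers of glutamine and other neutral amino acids, while Slc7a5 and Slc7a11 encode the light chains of exchangers that import large neutral amino acids and cystine, respectively, and both pair with the heavy chain Slc3a2. Activated T cells are known to need glutamine and large neutral amino acids, and several of these genes are known targets of the stress-responsive transcription factor ATF4.

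The libraries held 13491075 to 19750440 reads on genes, and all values below are normalized counts, that is, reads divided by a size factor of the library. Cd207, which encodes langerin, had a mean of 16.2 ± 10.4 (SD, n = 3) in WT KCs and 0 reads in the 3 LC-/- KC libraries. Of 20 DETC markers, 20 had a mean of at least 10 in both DETC groups and 0 in both KC groups. All 24 keratinocyte markers were also present in DETC libraries, at a median of 15.8% to 18.9% of their KC level in WT and 17.2% to 25.9% in LC-/- libraries. Single markers ranged from 5.22% to 282% of their KC level, so that these medians are a rough measure of keratinocyte RNA. At the median share it would make up 9.55% to 14.9% of the DETC value of Glud1, 12.7% to 25.5% of Got1, 13.8% to 23.6% of Slc38a2, 0.627% to 1.6% of Slc1a5 and 4.04% to 6.02% of Slc3a2.

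The promoters of the members bear on the ATF4 target genes described further on, so 4 of them are shown first. RefSeq promoter sequences (GRCm38.p6) were held for 6 of the 9 members, and none was held for Slc1a5, Slc7a5 and Slc38a1. They were searched, over 250 bases before the start and on both strands, for TGATGNAA (TTNCATCA on the other strand), the core of the element through which ATF4 and C/EBP proteins are known to bind amino acid response genes. The 120 bases before the start are printed, with matches in capitals, for the 3 promoters that held a match and for Glul, the member with the lower level in LC-/- KCs.
Asns (chr6:7693210-7693329, minus strand): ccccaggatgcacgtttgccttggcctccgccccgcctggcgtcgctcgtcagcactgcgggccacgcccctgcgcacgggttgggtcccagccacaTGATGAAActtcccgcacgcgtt
Slc7a11 (chr3:50443614-50443733, minus strand): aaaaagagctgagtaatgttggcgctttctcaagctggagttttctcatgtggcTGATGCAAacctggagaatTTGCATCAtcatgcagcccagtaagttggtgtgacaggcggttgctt
Got1 (chr19:43524606-43524725, minus strand): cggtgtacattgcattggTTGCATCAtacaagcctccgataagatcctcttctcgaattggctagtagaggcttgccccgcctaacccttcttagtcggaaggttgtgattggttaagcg
Glul (chr1:153899809-153899928, plus strand): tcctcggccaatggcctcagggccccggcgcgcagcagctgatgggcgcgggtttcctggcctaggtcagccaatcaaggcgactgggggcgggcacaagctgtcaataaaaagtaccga
The Asns match began 23 bases before the start, the Got1 match 102 bases before it, and the Slc7a11 promoter held 2 matches that began 66 and 47 bases before the start. No match was in the windows of Glul, Glud1 and Slc38a2. Of all 32851 promoters of this length, 3.45% held the motif and 13 held it at least 2 times.

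Glul, on chromosome 1 (GRCm38, 153899944 to 153909723, plus strand), was the member with the widest difference between genotypes in KCs. In WT KCs it was at 1935 (W1), 1254 (W2) and 2152 (W3) normalized counts, and in LC-/- KCs at 722 (L1), 737 (L2) and 604 (L3). The groups did not overlap, and the lowest WT library lay well above the highest LC-/- library. In DETCs the values were 2438, 2930 and 3074 in WT and 2803 and 3074 in LC-/- libraries, so that the genotypes overlapped. The log2 difference between LC-/- and WT was -1.34 (SE 0.22) in KCs, between -1.57 and -1.18 when 1 library was left out, and 0.07 (SE 0.12) in DETCs. The difference between these changes was 1.41 (SE 0.25) on the log2 scale, and it lay between 1.25 and 1.64 when 1 library was left out.

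The plot of each member by library shows this pattern beside those of the other 8 genes.

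**Figure D1:**
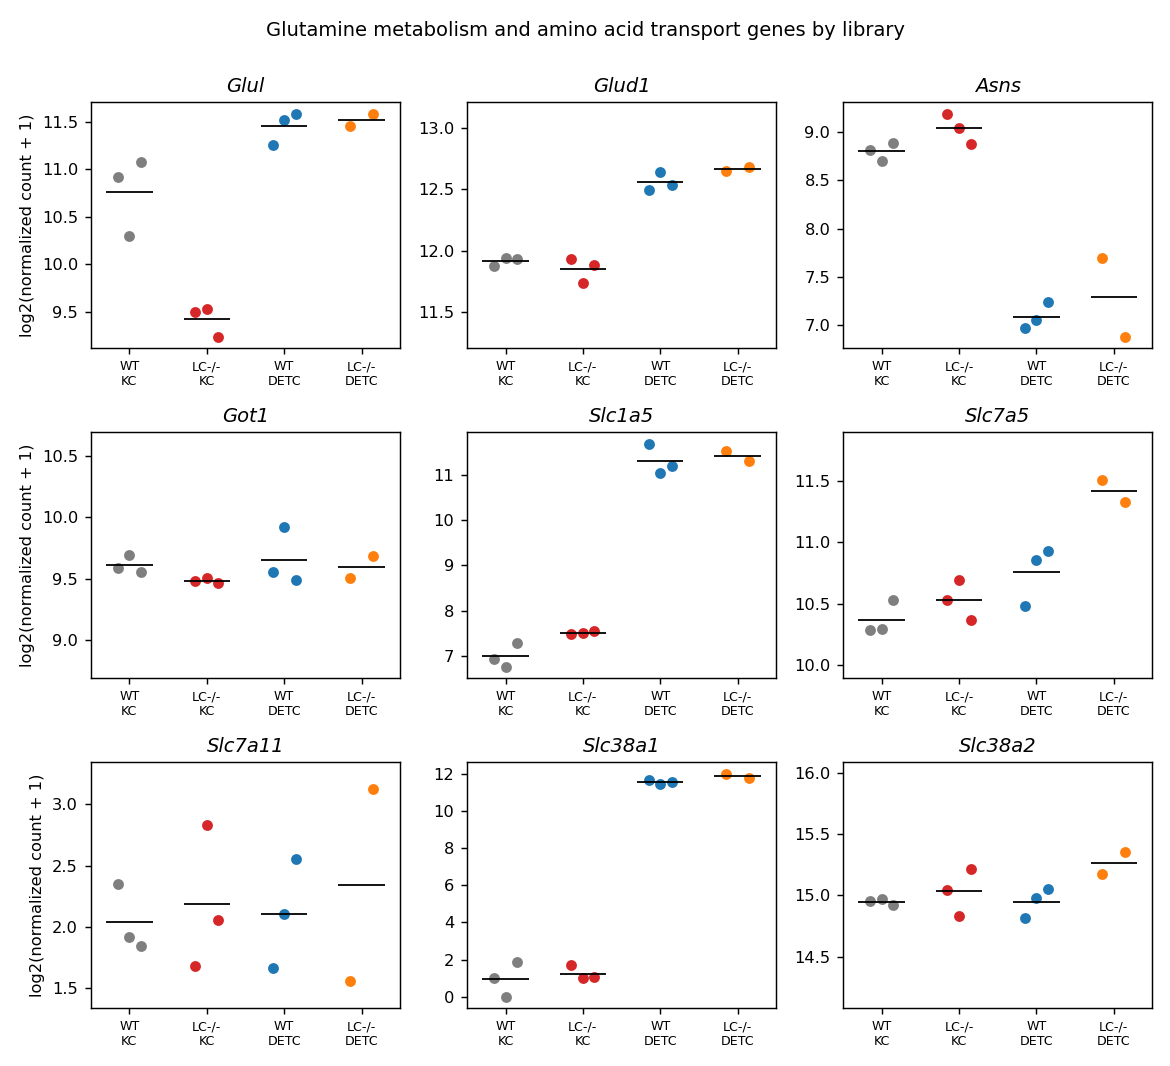
Each panel plots 1 member as log2(normalized count + 1) on the y axis, with its own range, for the 4 groups on the x axis. Points are libraries (n = 3, 3, 3 and 2) and lines are group means. The 3 LC-/- KC libraries are the lowest for Glul, while Slc38a1 and Slc1a5 are high in all 5 DETC libraries.

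In terms of level per kilobase of exon, Glul exceeded 92.7% of tested genes in WT and 78.6% in LC-/- KCs, and 94.2% in WT and 93.6% in LC-/- DETCs. Its mean level per kilobase in WT KCs, 536 ± 141 (SD, n = 3), stood next to that of Slc7a5, 358 ± 34.8, and their libraries overlapped. In LC-/- KCs the mean was 207 ± 21.9 (n = 3), next to and overlapping with Asns at 193 ± 20.9. Glul shares 116 of its 3323 exonic bases with Teddm2 on the other strand, which had at most 19 reads in any library.

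Markers of LCs were also lower in LC-/- than in WT KCs. The summed level of 14 LC markers was 350 to 523 in WT KCs and 175 to 291 in LC-/- KCs, with 4 of 9 tested markers lower (1.85% of all tested genes were lower in this comparison). Cd207, Itgax and Ltc4s were at 0 in every LC-/- KC library, and Clec10a was at 0 in every KC library of both genotypes. Of the other lists, 1 of 5 tested sebaceous gland markers was lower, and 1 of 24 keratinocyte and 1 of 20 DETC markers was higher, beside 5.37% of all tested genes. The summed keratinocyte markers were 784643 to 838545 in WT and 778787 to 841114 in LC-/- KCs. The part of these differences in the Glul values was not tested, and in sorted bulk RNA fewer cells of a type and less RNA per cell cannot be told apart.

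The genes most like Glul were taken by the Pearson correlation of log2 values, each population centred on its mean, over the 11 libraries and 14039 genes. They were Pik3r1 (r = 0.969), a regulatory subunit of PI3-kinase, the leukocyte actin-binding protein gene Lsp1 (0.965), the interferon-γ receptor chain Ifngr1 (0.961), the glucocorticoid-induced Tsc22d3 (0.960) and the ganglioside synthase B4galnt1 (0.953). Tsc22d3, for example, had a mean of 1212 ± 324 (SD, n = 3) in WT and 491 ± 131 (n = 3) in LC-/- KCs, and of 6599 ± 628 (n = 3) in WT and 5748 ± 533 (n = 2) in LC-/- DETCs. Lsp1 had few reads in KCs, with a mean of 7.45 ± 2.52 (n = 3) in WT and 0.339 ± 0.588 (n = 3) in LC-/- KCs. Centring by population left the difference between genotypes in KCs, on which Glul was selected, within these correlations. These points share libraries and cell sorts, and the correlations are a description only.

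Between the cell types, all 5 DETC libraries held more Glul than any of the 6 KC libraries. The log2 difference between DETCs and KCs was 0.69 (SE 0.18) in WT and 2.10 (SE 0.11) in LC-/- libraries, given as a description. In WT it lay between 0.46 and 0.85 when 1 library was left out, and it was 0.40 after quantile normalization. Keratinocyte RNA at the measured share would account for 3.84% to 11.8% of the Glul value of a DETC library.

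Glud1 (chromosome 14, 34310727 to 34345265, plus strand) was also a gene of higher level in DETCs. KC libraries held 3761, 3917 and 3909 in WT and 3911, 3401 and 3767 in LC-/-, and DETC libraries 5752, 6373 and 5941 in WT and 6435 and 6577 in LC-/-. All 5 DETC libraries lay above all 6 KC libraries. The log2 difference between DETCs and KCs was 0.64 (SE 0.07, adjusted p = 2.21e-05) in WT and 0.82 (SE 0.09, adjusted p = 0.000276) in LC-/- libraries. Between genotypes it differed by -0.07 (SE 0.06) in KCs and by 0.11 (SE 0.09) in DETCs.

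Asns (chromosome 6, 7675169 to 7693254, minus strand) went the other way and was the member with lower levels in DETCs. KC libraries held 449, 414 and 472 in WT and 584, 526 and 470 in LC-/-, against 124, 132 and 150 in WT and 206 and 117 in LC-/- DETCs. The log2 difference was -1.71 (SE 0.11, adjusted p = 4.58e-07) in WT and -1.75 (SE 0.24, adjusted p = 0.000769) in LC-/- libraries. Keratinocyte RNA at the measured share would account for 53.1% to 77.1% of the Asns value of a DETC library, or for 18.6% to 38.5% when the share is taken from the lowest single marker. After the median share was subtracted the log2 differences were -2.87 and -3.57. The genotypes overlapped in KCs (log2 difference 0.24, SE 0.10) and in DETCs (0.20, SE 0.24), where the 2 LC-/- libraries lay on either side of the WT ones.

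Got1 (chromosome 19, 43499752 to 43524605, minus strand) had overlapping levels in the cell types. KC libraries held 768, 824 and 752 in WT and 712, 724 and 703 in LC-/-, and DETC libraries 749, 970 and 716 in WT and 724 and 822 in LC-/-. The difference between DETCs and KCs did not pass the test in WT (log2 0.04, SE 0.11, adjusted p = 0.744) or LC-/- libraries (0.11, SE 0.09, adjusted p = 0.309), and without L2 of the DETCs the LC-/- difference was 0.20 (adjusted p = 0.0449). Its mitochondrial partner Got2 was lower in DETCs, by -0.56 (SE 0.08, adjusted p = 0.000158) and -0.73 (SE 0.08, adjusted p = 0.00027) on the log2 scale, so that the Got1 to Got2 ratio per kilobase was 1.20 to 1.40 in KCs and 1.61 to 2.38 in DETCs. Between genotypes, Got1 differed by -0.13 (SE 0.04) in KCs, where the groups did not overlap, and by -0.06 (SE 0.14) in DETCs.

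Among the glutamine carriers, Slc38a1 (chromosome 15, 96571418 to 96642913, minus strand) separated the cell types most widely. KC libraries held 0 to 3 reads each, 4 reads in all in WT and 4 in all in LC-/-. The DETC libraries held 2961, 3425 and 3118 reads in WT and 4311 and 3258 in LC-/-. The ratio of DETC to KC level was 2417 (95% counting interval 944 to 8872) in WT and 2780 (1085 to 10205) in LC-/- libraries. These intervals cover counting error alone. Slc38a1 was kept for testing only through its level in the DETC libraries. Its limma call between cell types was thus largely set by that filter, and its p is not given. In normalized counts the DETC values were 3231, 2826 and 3032 in WT and 4186 and 3602 in LC-/-, a log2 difference of 0.36 (SE 0.10) with no overlap.

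Slc38a2 (chromosome 15, 96687392 to 96699730, minus strand), which lies close to Slc38a1 and encodes a carrier of the same family, had high and overlapping levels in KCs and DETCs. It was at 31766, 32104 and 31007 in WT KCs and 33846, 29140 and 38142 in LC-/- KCs. The DETC libraries held 28860, 32269 and 33892 in WT and 37023 and 41814 in LC-/-. Per kilobase it was the member with the highest level in each of the 4 groups and exceeded 98.9% of tested genes in each. It did not pass the test between cell types in WT (log2 difference 0.00, SE 0.12, adjusted p = 0.995) or LC-/- libraries (0.23, SE 0.16, adjusted p = 0.227), although after subtraction of the keratinocyte share it was -0.27 in WT libraries (adjusted p = 0.0428). The 2 genes thus had different patterns, and per kilobase Slc38a1 was at 0.0442 to 0.0580 of the Slc38a2 level in DETC libraries. Between genotypes Slc38a2 differed by 0.08 (SE 0.12) in KCs and by 0.32 (SE 0.13) in DETCs.

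Slc1a5 (chromosome 7, 16781340 to 16798274, plus strand) was the other carrier that was abundant in DETCs and scarce in KCs. It was at 122, 108 and 155 in WT KCs and 177, 180 and 187 in LC-/- KCs. DETC libraries held 3305, 2101 and 2339 in WT and 2943 and 2526 in LC-/-. The log2 difference between cell types was 4.31 (SE 0.18, adjusted p = 2.11e-08) in WT, a 19.8-fold higher level, and 3.90 (SE 0.10, adjusted p = 9.93e-07) in LC-/- libraries, 14.9-fold higher. In KCs all LC-/- libraries were above all WT libraries, with a log2 difference of 0.52 (SE 0.15), and in DETCs the genotypes overlapped (0.11, SE 0.18).

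**Figure D2:**
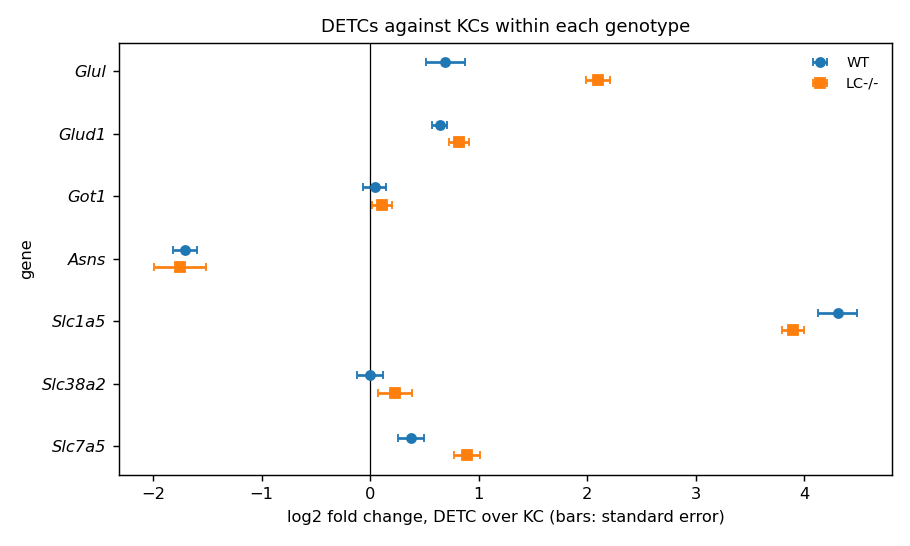
The x axis gives the log2 fold change of DETCs over KCs and the bars its standard error, for 7 members on the y axis, in WT (circles) and LC-/- (squares) libraries. Slc1a5 stands at 4.31 and 3.90 and Asns at -1.71 and -1.75, while Got1 and Slc38a2 lie near 0. Slc38a1, with 0 to 3 reads in each KC library, and Slc7a11, which was not tested, are left out.

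Slc7a5 (chromosome 8, 121881150 to 121907694, minus strand), the light chain of the large neutral amino acid exchanger, had the widest difference between genotypes in DETCs of the 8 tested members. It was at 1248, 1255 and 1475 in WT KCs and 1476, 1656 and 1319 in LC-/- KCs. DETC libraries held 1425, 1851 and 1951 in WT and 2906 and 2576 in LC-/-. The LC-/- DETC libraries lay above all WT DETC libraries, and the KC genotypes overlapped. The log2 difference between genotypes was 0.66 (SE 0.14) in DETCs, between 0.53 and 0.75 when 1 library was left out and between 0.53 and 0.69 under the other settings, and 0.16 (SE 0.11) in KCs. Keratinocyte RNA at the measured share would account for 9.88% to 15% of the Slc7a5 value of a DETC library.

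Between cell types the log2 difference of Slc7a5 was 0.89 (SE 0.12, adjusted p = 0.000646) in LC-/- libraries and 0.38 (SE 0.12, adjusted p = 0.0163) in WT libraries. The WT call held in 2 of 6 fits that left out 1 library, those without W3 of the KCs (0.46) and without W1 of the DETCs (0.52), and was lost at 0.34 without W1 and 0.35 without W2 of the KCs and at 0.33 without W2 and 0.30 without W3 of the DETCs. It was 0.12 after quantile normalization and 0.18 after the keratinocyte share was subtracted, and neither passed the threshold.

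The heavy chain Slc3a2, which is no member, was tested in every comparison. It was at 7703, 9263 and 8897 in WT DETCs and rose to 13712 and 13531 in LC-/- DETCs (log2 difference 0.66, SE 0.11, adjusted p = 0.0242), while in KCs the values of 2487, 2668 and 2932 in WT and 3209, 3304 and 3045 in LC-/- libraries did not pass the test (0.24, SE 0.07, adjusted p = 0.106). The difference between these 2 changes did not pass it either (0.42, SE 0.13, adjusted p = 0.22). The Slc7a5 to Slc3a2 ratio per kilobase was 0.176 to 0.209 in WT and 0.181 to 0.202 in LC-/- DETCs. In KCs the same ratio was 0.448 to 0.479 in WT and 0.412 to 0.477 in LC-/- libraries.

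**Figure D3:**
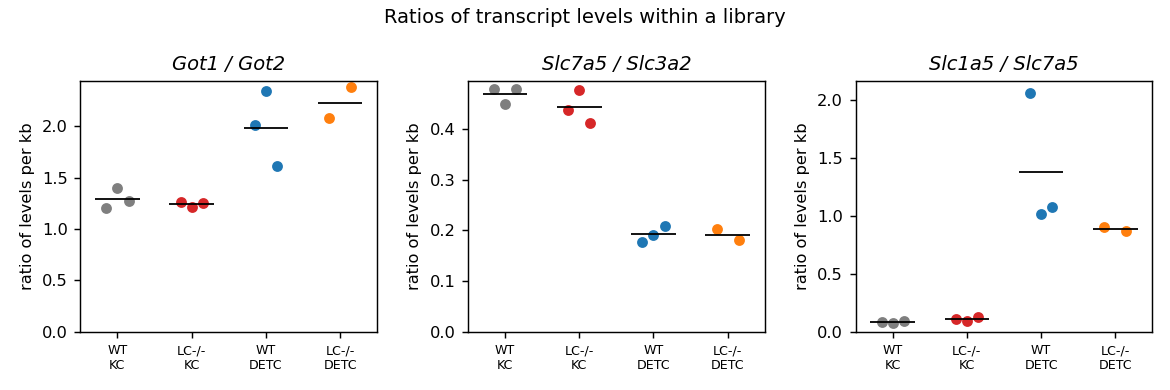
The y axis of each panel gives the ratio of 2 levels per kilobase of exon within a library, and the x axis the 4 groups, with points for libraries and lines for means. The Got1 to Got2 ratio is at 1.20 to 1.40 in KCs and 1.61 to 2.38 in DETCs. The Slc7a5 to Slc3a2 ratio splits by cell type, and the Slc1a5 to Slc7a5 ratio is at 0.0762 to 0.126 in KCs and 0.871 to 2.06 in DETCs.

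Slc7a11 (chromosome 3, 49892526 to 50443614, minus strand), the light chain of the cystine and glutamate exchanger, was close to undetected in both cell types. Libraries held 2 to 7 reads each, too few for it to be tested, and the summed reads were 10 in WT and 11 in LC-/- KCs, and 11 in WT and 9 in LC-/- DETCs. The DETC to KC ratio was 1.12 (95% counting interval 0.431 to 2.94) in WT and 1.20 (0.440 to 3.19) in LC-/- libraries. A difference between groups was thus not detectable at this depth. Slc7a11 was also the promoter with 2 of the searched matches, while Asns, with 1 match, was at 117 to 584 normalized counts over the 11 libraries.

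Taking the 7 tested members without Glul together, 4 were higher and 1 was lower in DETCs than in KCs in WT libraries, where 41.0% of all 14419 tested genes were higher and 35.1% lower. In LC-/- libraries the counts were again 4 and 1, where 38.1% of all tested genes were higher and 32.1% lower. The median log2 difference of these members was 0.38 in WT and 0.82 in LC-/- libraries, beside 0.07 and 0.08 over all tested genes. Quantile normalization moved the median over all tested genes to -0.24 in WT and -0.28 in LC-/- libraries, and subtraction of the keratinocyte share to -0.19 and -0.25. The members higher in both genotypes were Glud1, Slc1a5, Slc7a5 and Slc38a1, and the lower one was Asns. Slc38a1 is counted here although it was kept for testing only through its DETC level. No test is given for the members between genotypes, where the median, Glul included, was 0.12 in KCs and 0.16 in DETCs, beside -0.01 and 0.02 over all tested genes.

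**Figure D4:**
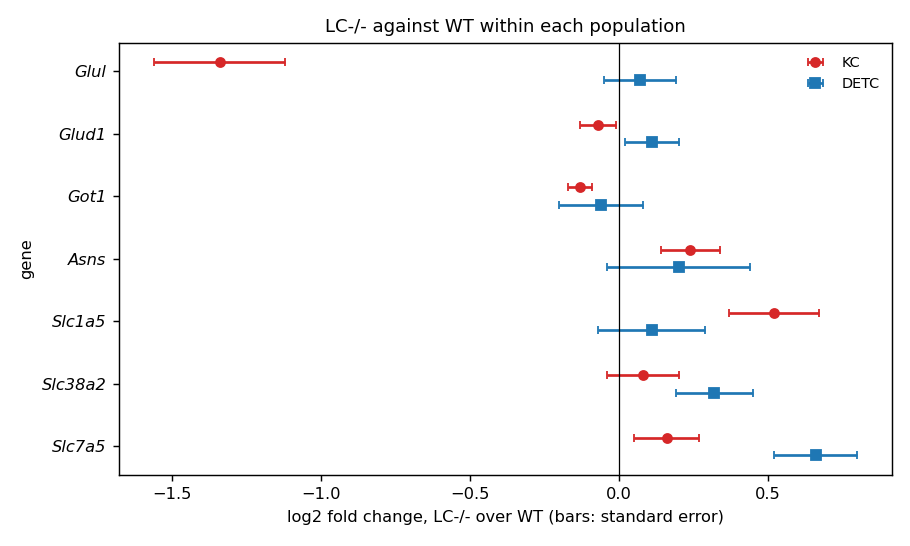
The x axis gives the log2 fold change of LC-/- over WT and the bars its standard error, for 7 members on the y axis, in KCs (circles) and DETCs (squares). Glul in KCs stands at -1.34, Slc7a5 in DETCs at 0.66 and Slc1a5 in KCs at 0.52. Slc38a1, with 0 to 3 reads in each KC library, and Slc7a11, which was not tested, are left out.

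The other genes of the pathway were described by 6 lists of 123 genes, 98 of them tested, that hold none of the 9 members. Between cell types most of them differed, and so did most of all tested genes. Of all tested genes, 41.0% were higher and 35.1% lower in DETCs in WT libraries, and 38.1% and 32.1% in LC-/- libraries. Of 26 amino acid transporters, 12 were higher and 9 lower in DETCs in WT libraries, and 10 and 9 in LC-/- libraries. Slc43a3 is counted among the higher ones in both genotypes, although it was kept for testing only through its DETC level. Its mean was 1.26 in WT and 1.43 in LC-/- KCs, and 55.6 and 45 in DETCs. The lysosomal proton-coupled carrier Slc36a1 was 3.66 (SE 0.15, adjusted p = 1.79e-08) higher in WT DETCs on the log2 scale and the neutral amino acid carrier Slc43a2 2.48 (SE 0.14, adjusted p = 1.92e-07). The cationic amino acid carrier Slc7a2 had a log2 difference of -3.08 (SE 0.37, adjusted p = 4.34e-05) and the glutamate carrier Slc1a1 one of -2.70 (SE 0.19, adjusted p = 8.2e-07). Slc7a2 had a mean of 11.8 in WT DETCs and 99.6 in WT KCs, and Slc1a1 of 49.7 and 324. The part of keratinocyte RNA in these DETC values was not tested.

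Of 14 further enzymes of glutamine and glutamate, 4 were higher and 7 lower in WT DETCs than in WT KCs, and 4 and 6 in LC-/- libraries. Abat, which breaks down the glutamate product GABA, was 5.06 (SE 0.30) higher in WT DETCs on the log2 scale. Like Slc38a1, it was kept for testing only through its DETC level. Aldh18a1, the first enzyme from glutamate to proline, was 1.48 (SE 0.11, adjusted p = 1.11e-06) higher. Prodh, which starts the breakdown of proline, had a log2 difference of -2.44 (SE 0.21, adjusted p = 3.74e-06), and the alanine aminotransferase Gpt one of -2.29 (SE 0.12, adjusted p = 9.32e-08). Prodh had a mean of 34.1 in WT DETCs and 192 in WT KCs, and Gpt of 106 and 525. The part of keratinocyte RNA in these DETC values was not tested.

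The remaining lists were mixed as well. Of 10 genes whose products use the amide of glutamine, 5 were higher and 1 lower in WT DETCs, and 6 and 2 in LC-/- DETCs, with Ctps2 (CTP synthesis) at 1.89 (SE 0.09, adjusted p = 7.16e-08) and the glutaminyl-tRNA synthetase gene Qars at -0.80 (SE 0.08, adjusted p = 7.16e-06) in WT. Of 8 glutathione enzymes 3 were higher and 5 lower in WT and 2 and 4 in LC-/- libraries, with Gclc, the catalytic subunit of the enzyme for the first step of glutathione synthesis, at 1.21 (SE 0.08, adjusted p = 4.35e-07) in WT. Ggt7, counted among the higher ones in WT, had a mean of 0.288 in WT KCs and 20.1 in WT DETCs. Like Slc38a1, Ggt7 was kept for testing only through its DETC level. Of 34 genes of the list of ATF4 and its targets, 13 were higher and 15 lower in WT DETCs and 12 and 15 in LC-/- DETCs. Of 13 targets of the oxidative stress factor NRF2 the counts were 6 and 6 in WT and 4 and 5 in LC-/- libraries. These counts are to be read against the 41.0% and 35.1%, and 38.1% and 32.1%, of all tested genes.

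Between genotypes, the lists showed fewer differences. In KCs 5.37% of all tested genes were higher and 1.85% lower in LC-/- libraries. Of the 26 transporters 3 rose and 3 fell. Slc1a1, a carrier of glutamate and cysteine, was at 324, 286 and 362 in WT KCs and rose to 776, 723 and 966 in LC-/- KCs (log2 difference 1.34, SE 0.14, adjusted p = 0.0194). Slc6a14, a sodium- and chloride-coupled carrier of neutral and cationic amino acids, rose from 1057, 1224 and 1502 to 3149, 2163 and 3328 (1.18, SE 0.21, adjusted p = 0.042), and the arginine and lysine carrier Slc7a1 rose by 0.57 (SE 0.10, adjusted p = 0.0396). In DETCs the log2 differences of Slc1a1 (1.34, SE 0.33, limma adjusted p = 0.0703) and Slc6a14 (1.11, SE 0.29, adjusted p = 0.082) were of similar size but did not pass. Their changes in DETCs and KCs differed by 0.00 (SE 0.35) and -0.07 (SE 0.37), which did not pass either. Mean Slc1a1 was 49.7 in WT and 132 in LC-/- DETCs, against 324 and 821 in KCs. For Slc6a14 the means were 255 and 553, against 1261 and 2880. The median keratinocyte share was 15.8% to 18.9% in WT and 17.2% to 25.9% in LC-/- DETC libraries. The part of keratinocyte RNA in the DETC changes of both genes was not tested. In KCs Slc38a6 fell by 0.69 (SE 0.12, adjusted p = 0.0376), Slc1a4, a relative of Slc1a5, by 0.55 (SE 0.11, adjusted p = 0.047) and Slc7a6, another light chain that pairs with Slc3a2, by 0.48 (SE 0.08, adjusted p = 0.0369). Of 10 other settings, 6 gave the KC call of Slc38a6, 7 that of Slc1a4 and 10 that of Slc7a6. For Slc1a1, Slc6a14 and Slc7a1 in KCs it was 10, 8 and 9.

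Of the 34 genes of the list of ATF4 and its targets, 8 rose and 1 fell in LC-/- KCs, with a list median of 0.17. Atf4 itself was at 8582, 8374 and 9588 in WT and at 11414, 11161 and 12279 in LC-/- KCs (log2 difference 0.39, SE 0.07, adjusted p = 0.0428). Cars, the cysteinyl-tRNA synthetase, rose from 429, 412 and 453 to 722, 683 and 671 (0.68, SE 0.05, adjusted p = 0.0169). Ddit3, which encodes the stress factor CHOP, rose from 180, 171 and 169 to 237, 245 and 230 (0.45, SE 0.06, adjusted p = 0.0252), and the asparaginyl-tRNA synthetase gene Nars by 0.42 (SE 0.08, adjusted p = 0.0463). The gene that fell was Shmt2, of mitochondrial serine breakdown (-0.27, SE 0.05, adjusted p = 0.0381). Of 10 other settings, 7 gave the Shmt2 call, 8 each those of Atf4 and Nars, and 10 each those of Cars and Ddit3. In the promoter search, 8 of the 32 genes of this list with a sequence held the motif, beside 3.45% of all promoters searched. This count covers the whole list and not the genes that rose. It is a count of genes, while the 3.45% is of promoters. The list was made up of ATF4 and its targets, so the count is no test of the motif.

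In KCs 1 of 8 glutathione enzymes rose, Ggct (0.67, SE 0.11, adjusted p = 0.0355), and 1 of 13 NRF2 targets, Osgin1 (0.37, SE 0.07, adjusted p = 0.0483), a call that 7 of 10 other settings did not give. Of the 14 enzymes and the 10 amide users 0 passed the limma test. At an unadjusted p under 0.05, 2 enzymes were lower and 3 amide users higher, and edgeR and DESeq2 each called 0 enzymes and 1 amide user. In all, 16 listed genes were called in KCs. Of these, 6 were called without L2, 2 without W3 and 0 without each of W1, W2, L1 and L3, so that no single call in KCs held in every fit that left out 1 library.

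In DETCs 3.13% of all tested genes were higher and 0.430% lower in LC-/- libraries, and 7 of the 98 listed genes were called, all of them higher. Besides Slc3a2, they were the aromatic amino acid carrier Slc16a10 (0.56, SE 0.08, adjusted p = 0.0186), Slc7a1 (0.62, SE 0.13, adjusted p = 0.0428), the glutamyl-prolyl-tRNA synthetase gene Eprs (0.62, SE 0.13, adjusted p = 0.0427) and the sulfiredoxin gene Srxn1 (0.93, SE 0.15, adjusted p = 0.024). The other 2 encode users of the glutamine amide. Ctps, which like Ctps2 acts in CTP synthesis, rose from 442, 483 and 450 to 838 and 750 (0.79, SE 0.10, adjusted p = 0.0155), and Gfpt1, the first enzyme of the hexosamine pathway, from 1246, 1358 and 1358 to 2126 and 1799 (0.57, SE 0.10, adjusted p = 0.0304). By list these were 3 of 26 transporters, 2 of 10 amide users, 3 of 34 genes of the list of ATF4 and its targets, 1 of 13 NRF2 targets and 0 of the 14 enzymes and 8 glutathione enzymes, where limma gave 2 higher and 2 lower enzymes and 1 higher glutathione enzyme at an unadjusted p under 0.05, edgeR called 0 of both and DESeq2 called 1 enzyme. Of the 7 genes, 3 were called without W1, 5 without L3 and 0 without each of W2, W3 and L2. The keratinocyte share was highest in L2 (25.9%), and after it was subtracted 0 listed genes were called, as limma called 0 of all tested genes. The summed LC markers were at 1737 to 2091 in WT and 1422 to 1429 in LC-/- DETCs, with 4 of 9 tested markers lower and Ciita and Ltc4s at 0 in both LC-/- libraries, and 1 of 20 DETC markers was lower. The part of these differences in the DETC values was not tested.

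**Figure D5:**
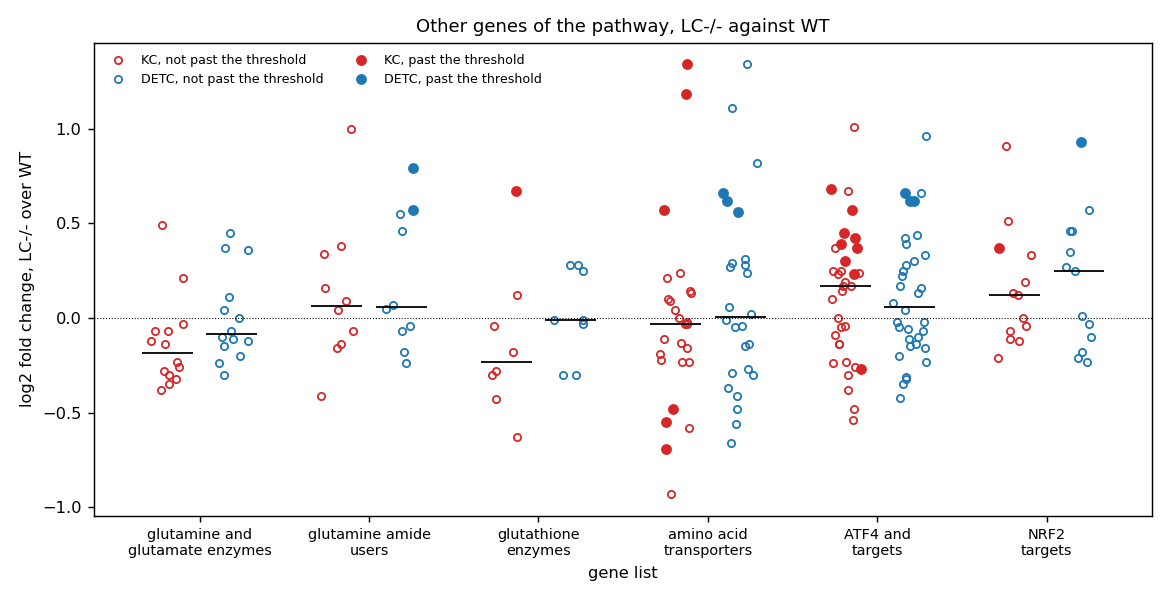
The y axis gives the log2 fold change of LC-/- over WT for the tested genes of the 6 lists on the x axis, in KCs (red) and DETCs (blue). Filled points passed the limma threshold, open points did not, and lines are list medians. In KCs 8 genes of the list of ATF4 and its targets rose and 1 fell, and in DETCs the 7 genes that passed were all higher.

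Whether a change differed between the cell types was tested by the interaction of population and genotype, in which 0.617% of all tested genes had a higher and 0.180% a lower change in DETCs. Of the 98 listed genes 1 passed. For Slc16a10, KC libraries held 708, 569 and 654 in WT and 575, 522 and 586 in LC-/-, and DETC libraries 4293, 4394 and 4306 in WT and 6529 and 6234 in LC-/- (difference of log2 changes 0.75, SE 0.13, adjusted p = 0.0192). Without W3 of the KCs the adjusted p was 0.0515, without W3 of the DETCs 0.0505 and without L2 of the DETCs 0.0755. It was 0.0647 after quantile normalization and 0.0954 without the trend of variance on level. For Atf4 the changes of the 2 populations did not differ by this test (-0.06, SE 0.13, adjusted p = 0.915).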

How the data were processed

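After trimming with cutadapt, the authors used hisat2 (GRCm38) and featureCounts for alignment and counting per gene, and deposited counts divided by size factors (the submitters' notes name DESeq2), a signal on the scale of counts. Reads were recovered from each library's smallest step, and 100.0% of values were whole to within 0.01. Of 52550 identifiers, 52403 were matched to symbols, and coordinates are those of GENCODE mouse release 21. Genes with over 1 CPM in at least 2 of the 11 libraries (14419) were tested on log2(normalized count + 1) with limma-trend (limma 3.58.1, R 4.3.3) at a Benjamini-Hochberg adjusted p of 0.05. Fold changes on this scale understate changes of low genes. The keratinocyte share of a DETC library was the median, over 24 markers, of its value against the mean KC value of its genotype. edgeR 4.0.16 and DESeq2 1.42.0 were run on recovered reads, and the tests were checked on simulated counts. A test of Glul between cell types was planned and is left out, since Glul was selected on these values. Named genes were all members, the called genes of each list with a mean of at least 10 (at most 4 per direction by size of change), Slc3a2, Got2, Atf4 and the 5 genes most like Glul; the text gives examples of these, and some results under this rule are not reported here. The members, the lists and this rule were chosen with earlier results of these data known. Between replicate pairs, chi-square divided by its degrees of freedom was 8.41 to 25.2, so no library was a copy of another.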

Additional observations from a re-analysis of the deposited data

Results flagged for a closer look

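Slc16a10, which encodes a carrier of aromatic amino acids, was the listed gene whose change in LC-/- libraries differed between DETCs and KCs by a test of the difference itself. The difference of log2 changes was 0.75 (SE 0.13, limma adjusted p = 0.0192), higher in 2 of 2 LC-/- DETC libraries than in any WT DETC library. The adjusted p lay between 1.4e-05 and 0.0954 over the other settings and the fits that left out 1 library.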

How the results depend on the processing

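The tests of members between cell types kept their direction under all alternatives apart from Got1 and Slc38a2, which are near 0, and of the calls, that of Slc7a5 in WT libraries was lost in 7 refits, while Slc38a2 gained one in WT (keratinocyte share subtracted) and Got1 in LC-/- libraries (without L2 of the DETCs). The members' untested differences between genotypes that lay near 0 often changed sign. Quantile normalization turned Glul (-0.09), Glud1 (-0.10) and Slc1a5 (-0.05) in DETCs and Slc38a2 (-0.10) in KCs, and subtraction of the keratinocyte share turned Asns in DETCs to -0.46. Leaving out 1 library also changed the sign for Glul, Asns, Got1 and Slc1a5 in DETCs and for Slc38a1 and Slc38a2 in KCs. Quantile normalization also turned the Atf4 difference between cell types in LC-/- libraries to -0.10.

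Counts depended far more on the settings. In KCs, 1042 genes were called between genotypes, against 1617 without a filter, 1740 with a mean of at least 10, 633 after quantile normalization, 1783 with edgeR and 1755 with DESeq2, and 5 to 721 when 1 library was left out. The 16 listed genes became 8 with quantile normalization, 8 when the trend was dropped, and 0 to 7 when 1 library was left out. In DETCs, 514 calls became 263 after quantile normalization, 0 without a trend (limma, with 1554 genes higher and 853 lower by an unadjusted p of 0.05), 1110 with DESeq2, 959 in 1 fit over all 11 libraries, 0 after subtraction of the keratinocyte share (1123 higher and 1278 lower unadjusted) and 35 to 590 when 1 library was left out, and edgeR gave 483. The higher share of calls was 87.9%, and 67.7% after quantile normalization. The 7 listed genes became 2 after quantile normalization, 0 without a trend, 18 with DESeq2, 16 in 1 fit, 0 after subtraction, and 0 to 7 when 1 library was left out. The interaction gave 115 calls, 22 without a trend, 308 with DESeq2, 364 after subtraction, where 39.8% of calls were higher against 77.4%, and 32 to 138 when 1 library was left out, and quantile normalization made 59.3% of its calls higher. The 1 listed gene became 0 after quantile normalization or without a trend, 2 with edgeR, 3 with DESeq2, 2 after subtraction, and 0 to 2 when 1 library was left out. Between cell types the higher share of calls moved from 53.9% to 41.3% after quantile normalization in WT, and from 54.3% to 39.6% and, after subtraction, 42.9% in LC-/- libraries. The cause was not tested.

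The numbers in the labels could not be shown to pair KC and DETC libraries. Deviations of same-numbered libraries from their group means correlated at 0.143 (L2), 0.117 (L3), -0.0534 (W1), 0.0667 (W2) and 0.117 (W3). With a replicate block the interaction gave 27 calls and 0 listed genes (Slc16a10 at adjusted p = 0.0865, limma, 918 higher and 455 lower genes unadjusted), and between cell types 10873 and 9351 calls against 10965 and 10126. Depth limits Slc7a11 and the KC level of Slc38a1 to counting statements, and the 2 LC-/- DETC libraries limit every comparison that uses them.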
